A study of Mus musculus with 4 samples.

Results

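A set of 10 genes of the MBNL, CELF, PTBP, RBFOX, ESRP and STAR families of alternative splicing regulators were followed in mouse oocytes with and without a splice-site mutation of *Ezh2*. The members were *Mbnl1*, *Mbnl2*, *Celf1*, *Celf2*, *Ptbp1*, *Ptbp2*, *Rbfox2*, *Esrp1*, *Esrp2* and *Qk*, chosen by symbol, 10 of 55335 annotated genes. All 10 were among the 15493 genes abundant enough to test, but *Mbnl2* reached the filter on low counts through the mutant libraries alone. The study sequenced RNA from oocytes of the C57BL/6 strain after Smart-Seq2 amplification, in 2 control libraries (descriptions MII_WT) and 2 mutant libraries (descriptions MII_Mut). A point mutation placed in the alternatively spliced end of *Ezh2* exon 3 gave the series a long-form and a short-form line. From the label Mutant it cannot be read which line was sampled, how many oocytes were pooled, or whether the libraries came from separate animals, so p-values speak only for the spread among these 4 samples.

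These proteins bind short motifs in pre-mRNA and decide which exons and splice sites are used. MBNL proteins (muscleblind-like) and CELF proteins oppose each other on many exons in developing muscle and heart. PTBP proteins (polypyrimidine tract binding) mostly repress exons, and *Ptbp2* replaces *Ptbp1* in developing neurons. RBFOX and the STAR family protein quaking, encoded by *Qk*, act by position around an exon, and ESRP proteins set the epithelial pattern of splicing.

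The annotated exon 3 of *Ezh2* is shown because the mice were built around its alternative splicing, although the labels give no coordinate for the mutation. In GENCODE M21 the exon spans chr6:47576536-47576664 (mm10, minus strand, coding) in 5 *Ezh2* transcripts and ends 27 bases earlier in 2, so its long form has 129 bases and its short form 102. The added bases, in capitals, have the length of 9 codons and lie at the 3′ end of the exon, next to the donor site.
Ezh2 exon 3 long form: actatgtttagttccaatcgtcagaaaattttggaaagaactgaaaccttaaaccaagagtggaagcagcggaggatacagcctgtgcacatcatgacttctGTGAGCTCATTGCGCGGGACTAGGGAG
The exon was searched on the transcript strand for 1 core motif of each family. TGTT, bound by CELF proteins, occurred once, at position 5 from the exon's start. Of 1399 internal exons of the same length in protein-coding transcripts, 35.4% hold it. No match was found for the MBNL core motif, GC flanked on each side by C or T (held by 83.3% of those exons), the PTBP motif TCTT (41.2%), the RBFOX motif GCATG (12.9%), the ESRP motif TGGTGG (8.08%) or the quaking motif ACTAAC with its variant ending in T (2.07%). Introns, where many of these proteins bind, were not searched. *Ezh2* itself was at 313 and 239 CPM (counts scaled to the library size) in controls 1 and 2 and at 176 and 223 CPM in mutants 1 and 2, and the deposited gene sums do not give the share of the forms, so its level does not check the labels.

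The libraries held between 25090032 and 26617816 counts. All 12 oocyte markers examined were detected in every library, with a summed level between 15331 and 17366 CPM. Markers of other cell types were also read, and part of them was higher in the mutant libraries. The sum of 19 cumulus and granulosa genes was 73.7 and 56.1 CPM in controls 1 and 2, 379 CPM in mutant 1 and 46.4 CPM in mutant 2, and 16 of the 19 were highest in mutant 1. The sum of 19 leukocyte genes was 16.4, 24.2 and 25.6 CPM in controls 1 and 2 and mutant 1, and 247 CPM in mutant 2, where 15 of the 19 were highest. The sum of 10 epithelial genes was 79.9 and 93.7 CPM in controls and 136.5 and 119 CPM in mutants, most of it *Cdh1*. In bulk libraries fewer cells of a type and less RNA per cell cannot be told apart.

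Read per length, in TPM (the deposited share of transcripts, corrected for length), the oocytes held *Ptbp1* as the most abundant member and the MBNL genes and *Esrp2* as the scarcest. *Ptbp1* was at 202 and 384 TPM in controls 1 and 2 and at 291 and 276 TPM in mutants 1 and 2, first in every library. *Rbfox2* came second in every library, at 98.2 and 102.7 TPM in controls and 158 and 156 TPM in mutants, below the lowest *Ptbp1* value. *Celf2* (66.5 to 93.0 TPM), *Qk* (64.4 to 86.3 TPM) and *Ptbp2* (52.1 to 83.6 TPM) overlapped in range and changed places between libraries. *Esrp1* (35.7 to 57.6 TPM) overlapped only the lower end of *Ptbp2*, and *Celf1* followed at 13.9 to 19.4 TPM. *Mbnl1* lay between 1.40 and 9.42 TPM, *Mbnl2* between 0 and 9.98 TPM and *Esrp2* between 0.11 and 1.09 TPM. The first place of *Ptbp1* depends on its short estimated mean length, 863 to 998 bases. In CPM, which is not divided by length, *Celf2* was the highest member in every library (192 to 355 CPM). *Ptbp1* was then at 77.2 to 134 CPM. The MBNL genes and *Esrp2* were the lowest on both scales.

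Mutant and control oocytes were compared to ask whether these levels differed with the *Ezh2* mutation. *Mbnl1* rose, none of the members fell, and the other 9 missed the threshold, an adjusted p under 0.05 over all tested genes (quasi-likelihood test of edgeR, Benjamini-Hochberg). That is 1 of 10, where 3.75% of all tested genes passed, 1.77% as higher and 1.98% as lower. The mutant libraries lay above both controls in CPM for 5 members, *Mbnl1*, *Mbnl2*, *Celf2*, *Rbfox2* and *Esrp1*, and below them for none, where 28.8% and 25.7% of all tested genes did so (54.6% in either direction). The median log2 fold change was 0.31 over the members and 0.05 over all tested genes. It was positive for 7 members and negative for 3, where 53.3% of all tested genes were positive. On counts simulated with the same spread for all genes (coefficient of variation 0.353), the test recovered 0% of 2-fold and 50% of 4-fold changes. These changes were planted only in genes above a minimum mean count, which *Esrp2* did not reach. Real genes with less spread can pass at smaller changes, as *Arid5b* did (2.34-fold lower in mutants, edgeR adjusted p = 0.0138). The simulation thus does not give the power for each member. A member that missed the threshold is not shown to be equal in the groups.

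**Figure D1:**
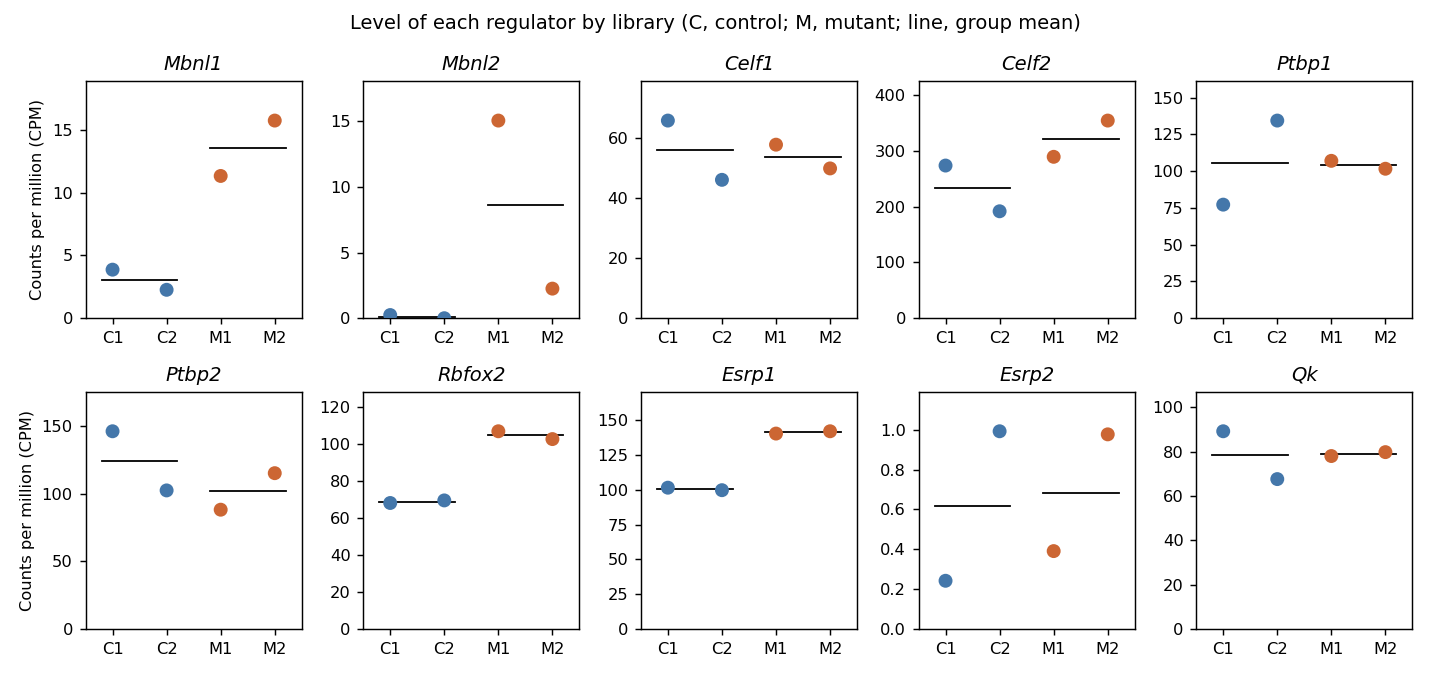
Level of each of the 10 regulators in scaled counts (CPM, linear axis from 0, scaled per gene) in controls 1 and 2 (C1, C2) and mutants 1 and 2 (M1, M2), with lines at the group means. Both mutants sit above both controls for Mbnl1, Mbnl2, Celf2, Rbfox2 and Esrp1, and the groups overlap for the other 5.

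*Mbnl1* (chromosome 3, 60472830 to 60629750, mm10, plus strand), which promotes adult splicing patterns in muscle and brain, was at 3.87 and 2.26 CPM in controls 1 and 2. It was at 11.3 and 15.7 CPM in mutants 1 and 2. Both mutants were thus well above both controls, at a low level in every library. The mutant mean of 13.5 ± 3.12 CPM was 4.42-fold above the control mean of 3.06 ± 1.13 CPM (SD, n = 2 each), with a log2 fold change of 2.14 (SE 0.39, edgeR adjusted p = 0.0425). The value without 1 library ran from 1.76 to 2.57, and the call was lost without control 1 (edgeR adjusted p = 0.253), control 2 (0.311) or mutant 2 (0.0525). Its mean level was too low for the alternative limited to genes with 10 CPM or more.

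Its paralog *Mbnl2* (chromosome 14, 120275669 to 120431697, plus strand), which acts mainly in the brain, had 6 counts in control 1, 0 in control 2, 424 in mutant 1 and 60 in mutant 2. These are 0.242 and 0 CPM against 15.1 and 2.25 CPM. Mutant 1 thus held most of the counts. The fitted log2 fold change was 6.12 (SE 1.35, edgeR adjusted p = 0.0619), which did not pass, and with so few control counts its size is poorly fixed. With 1 library left out it was 10.85 without control 1 (adjusted p = 0.303), 5.08 without control 2 (0.354), 4.15 without mutant 1 (0.0107) and 6.90 without mutant 2 (0.00664). The call also depended on the tool and filter, with an adjusted p of 0.0478 in limma, 0.0531 in DESeq2 and 0.00557 with the low-count filter left off. Because *Mbnl2* entered the test only through the libraries where it was high, none of these p-values is independent support. An antisense gene within the locus, *Gm26679*, had 2, 0, 38 and 8 counts in the same order of libraries, and the sources used here do not say whether counting was stranded.

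Markers of other cell types were set beside the MBNL genes. Of the 19 leukocyte genes, 5 were tested. Over all 19, 6 were higher in both mutants than in both controls and 1 was lower in both. Among the 5 tested, 2 were higher and 1 was lower, where 28.8% and 25.7% of all tested genes were. Of the 6, *Ptprc*, *Cd2*, *Lck* and *Tyrobp* were not tested and had 3, 7, 1 and 2 counts in mutant 1. *Lyz2*, a myeloid lysozyme gene also among the 6, had 0.362 and 0.0397 CPM in controls 1 and 2. It had 8.03 and 3.83 CPM in mutants 1 and 2 (edgeR adjusted p = 0.0437). *Cd74*, the invariant chain gene of antigen-presenting cells, had 0 in both controls and 2.70 and 1.01 CPM in mutants 1 and 2 (edgeR adjusted p = 0.0428). Like *Mbnl2*, *Lyz2* and *Cd74* reached the filter on low counts through the mutant libraries alone, so these p-values are not independent support. Both were highest in mutant 1, the only 2 of the 19 leukocyte genes that were, while 15 were highest in mutant 2. The pan-leukocyte gene *Ptprc* was at 0 in both controls, at 0.107 CPM in mutant 1 and at 43.2 CPM in mutant 2. The leukocyte genes at 0 numbered 13, 14, 8 and 0 of 19 in controls 1 and 2 and mutants 1 and 2.

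Of the 19 cumulus and granulosa genes, 11 were tested and none passed. Over all 19, 1 was higher in both mutants than in both controls and 1 was lower in both. Both of these were among the 11 tested, where 28.8% and 25.7% of all tested genes were higher and lower. The gene that was higher, *Has2*, which makes the hyaluronan of the cumulus matrix, had 0.0403 and 0.794 CPM in controls and 6.14 and 1.84 CPM in mutants 1 and 2. Like 16 of the 19, *Has2* was highest in mutant 1. The sum of the 19 in mutant 2 (46.4 CPM) was below that in controls 1 and 2 (73.7 and 56.1 CPM). The gap junction gene *Gja1* had 10.9 CPM in control 1, 0 in control 2, 99.3 CPM in mutant 1 and 7.96 CPM in mutant 2. The gene that was lower, the aromatase gene *Cyp19a1*, had 34.2 and 42.5 CPM in controls and 16.4 and 23.6 CPM in mutants, and it made up much of the summed level outside mutant 1. The genes at 0 numbered 6, 10, 2 and 6 of 19 in controls 1 and 2 and mutants 1 and 2. The part of these cell types in the *Mbnl1* and *Mbnl2* values was not tested.

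**Figure D2:**
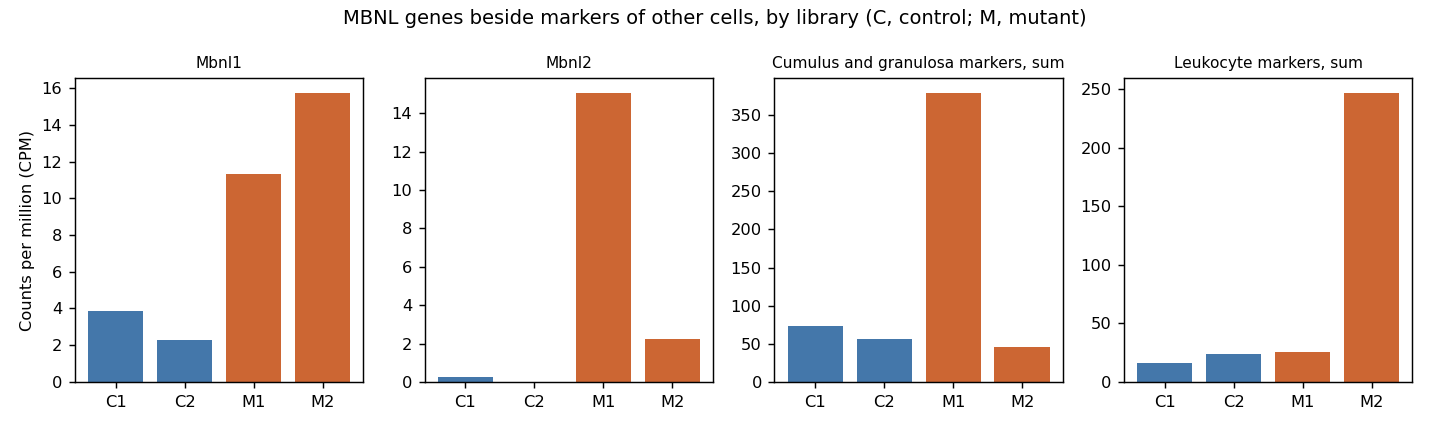
Bars from 0 in scaled counts (CPM) for Mbnl1, Mbnl2 and the summed cumulus and granulosa markers and leukocyte markers, in controls 1 and 2 (C1, C2) and mutants 1 and 2 (M1, M2). The cumulus sum is highest in mutant 1 (379 CPM) and the leukocyte sum in mutant 2 (247 CPM), and Mbnl1 is high in both mutants and Mbnl2 mostly in mutant 1.

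The sequences before the annotated starts of both genes are shown because they are the members with the largest differences. RefSeq (build GRCm38.p6, the mm10 assembly) gives 2 starts for *Mbnl1* and 1 for *Mbnl2*, and 7 of the 10 members had an entry. Each line holds the 250 bases upstream of a start, 5′ to 3′, with CG dinucleotides in capitals.
Mbnl1 chr3:60472580-60472829, plus strand: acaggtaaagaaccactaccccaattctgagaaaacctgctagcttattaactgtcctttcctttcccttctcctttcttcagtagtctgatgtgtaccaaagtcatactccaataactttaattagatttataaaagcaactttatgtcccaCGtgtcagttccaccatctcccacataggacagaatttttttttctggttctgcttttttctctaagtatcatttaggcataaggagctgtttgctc
Mbnl1 chr3:60500929-60501178, plus strand: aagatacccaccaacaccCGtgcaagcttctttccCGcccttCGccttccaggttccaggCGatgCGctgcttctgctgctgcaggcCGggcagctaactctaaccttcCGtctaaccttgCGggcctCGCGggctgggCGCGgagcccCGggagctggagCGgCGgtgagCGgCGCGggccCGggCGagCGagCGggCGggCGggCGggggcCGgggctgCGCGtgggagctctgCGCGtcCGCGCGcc
Mbnl2 chr14:120275419-120275668, plus strand: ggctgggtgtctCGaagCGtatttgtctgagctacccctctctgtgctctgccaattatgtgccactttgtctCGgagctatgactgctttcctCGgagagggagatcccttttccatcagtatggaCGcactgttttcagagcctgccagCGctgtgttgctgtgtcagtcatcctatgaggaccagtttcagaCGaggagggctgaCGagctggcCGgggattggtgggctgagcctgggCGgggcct
The first *Mbnl1* window held 1 CG and the second 33, counts that 92.1% and 4.03% of 32851 promoter windows reach or exceed, and the *Mbnl2* window held 10 (37.8%). The deposited gene sums do not say which start the reads came from.

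The CELF genes, which compete with MBNL on shared exons, were both well expressed. *Celf2* (chromosome 2, 6539694 to 7509563, minus strand) was at 274 and 192 CPM in controls 1 and 2 and at 290 and 355 CPM in mutants 1 and 2. The lower mutant was only slightly above the higher control. The log2 fold change was 0.47 (SE 0.21, edgeR adjusted p = 0.248), and it ran from 0.19 without control 2 to 0.74 without control 1. *Celf1* (chromosome 2, 90940382 to 91019497, plus strand), a regulator of mRNA decay as well as splicing, had control values of 65.9 and 46.2 CPM and mutant values of 57.9 and 49.96 CPM. These groups overlapped (log2 fold change -0.06, SE 0.22, edgeR adjusted p = 0.910), and the sign turned with library totals as the scaling.

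The PTBP genes overlapped between the groups. *Ptbp1* (chromosome 10, 79854427 to 79864771, plus strand) was at 77.2 and 134 CPM in controls 1 and 2 and at 107 and 102 CPM in mutants, so both mutants lay between the controls. Its log2 fold change was -0.02 (SE 0.26, edgeR adjusted p = 0.973), with a sign that turned under library totals, limma and the RSEM counts. The antisense genes *Gm17134* (115 to 288 counts) and *Plppr3* (80 to 199 counts) overlap it, and its matrix counts were 0.887 to 0.941 times the RSEM counts. *Ptbp2* (chromosome 3, 119718742 to 119784466, minus strand) had control values of 146 and 102 CPM and mutant values of 88.1 and 115 CPM. The log2 fold change was -0.29 (SE 0.22, edgeR adjusted p = 0.495).

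*Rbfox2* and *Esrp1* differed between the groups by more than the libraries of a group differed from each other, without passing the test. *Rbfox2* (chromosome 15, 77078990 to 77307004, minus strand) was at 68.1 and 69.5 CPM in controls 1 and 2 and at 106.9 and 102.7 CPM in mutants 1 and 2. The means were 68.8 ± 0.984 and 104.8 ± 2.99 CPM (SD, n = 2 each), a 1.52-fold difference. Its log2 fold change was 0.61 (SE 0.14, edgeR adjusted p = 0.0669). It passed with DESeq2 (adjusted p = 0.00744) and when only genes averaging 10 CPM or more were tested (edgeR, 0.0365). It did not pass with limma (adjusted p = 0.0658) or the replicate block (edgeR, 0.102). With a library left out the log2 fold change of *Rbfox2* ran from 0.56 to 0.63.

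*Esrp1* (chromosome 4, 11331933 to 11386783, minus strand), known for the epithelial forms of *Fgfr2* and *Cd44*, was at 101.6 and 99.8 CPM in controls 1 and 2. It was at 140.5 and 142.1 CPM in mutants 1 and 2. The 2 libraries of each group lay close together and the groups did not overlap. The means were 100.7 ± 1.27 and 141.3 ± 1.17 CPM (SD, n = 2 each), 1.40-fold apart, with a log2 fold change of 0.49 (SE 0.14, edgeR adjusted p = 0.0950). It passed with DESeq2 (adjusted p = 0.0336) and when only genes averaging 10 CPM or more were tested (edgeR, 0.0478). It did not pass with limma (adjusted p = 0.0947) or the replicate block (edgeR, 0.183). With a library left out the log2 fold change of *Esrp1* ran from 0.43 to 0.49. Of the 10 epithelial genes, 4 were tested and none passed. Over all 10, 5 were higher in both mutants than in both controls and 1 was lower in both. Among the 4 tested, 3 were higher and 1 was lower, where 28.8% and 25.7% of all tested genes were. The 5 include *Krt7* (0, 0, 1 and 5 counts in controls 1 and 2 and mutants 1 and 2) and *Pax8* (0, 0, 5 and 2 counts). *Cdh1*, which oocytes also express, had 74.7, 87.4, 109 and 113 CPM in controls 1 and 2 and mutants 1 and 2. *Ovgp1*, the oviductal glycoprotein gene, had 0.443, 0.675, 15.7 and 1.503 CPM, and *Epcam* had 0.604, 1.27, 2.56 and 2.55 CPM in the same order. *Krt8* (10, 0, 103 and 2 counts) and *Krt18* (5, 0, 75 and 0 counts) were highest in mutant 1, and *Muc1* was at 0 in every library. The part of epithelial cells in the *Esrp1* value was not tested. *Esrp2* (chromosome 8, 106130319 to 106136974, minus strand) had 6 and 25 counts in the control libraries, 11 and 26 in the mutant ones, too few to compare (log2 fold change 0.14, SE 0.93, edgeR adjusted p = 0.948).

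*Qk* (chromosome 17, 10202601 to 10319854, minus strand), whose protein stabilises mRNAs as well as guiding splicing, was at 89.2 and 67.6 CPM in controls 1 and 2 and at 78.0 and 79.7 CPM in mutants. Both mutants lay between the controls (log2 fold change 0.01, SE 0.18, edgeR adjusted p = 0.983), and the sign turned with the size factors of DESeq2. In TPM, which divides by the length of the transcripts in use, *Qk* was at 64.4 and 70.6 in controls and at 86.3 and 78.7 in mutants, without overlap. For *Qk* the 2 scales thus differed on whether the groups overlapped.

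**Figure D3:**
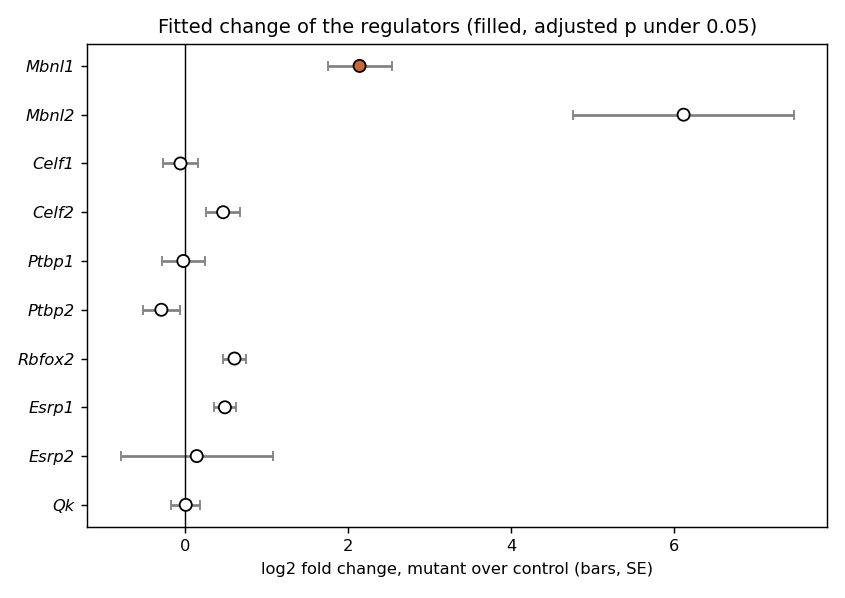
Log2 fold change of mutant over control for the 10 regulators (points) with its standard error (bars), from the edgeR fit across all genes; filled points have an adjusted p under 0.05. Only Mbnl1 (2.14) is filled, Mbnl2 (6.12) has the largest value and the widest bar, and Celf1 (-0.06), Ptbp1 (-0.02) and Qk (0.01) lie close to 0.

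The balance of paralogs was read within each library as the ratio of their TPM values, each with 1 TPM added. The added value pulls the ratio towards 1 where a gene is near or under 1 TPM, as *Mbnl2* and *Esrp2* were. *Celf2* exceeded *Celf1* 3.71-fold and 4.53-fold in controls 1 and 2 and 3.79-fold and 4.91-fold in mutants 1 and 2. *Ptbp1* exceeded *Ptbp2* 2.40-fold and 5.59-fold in controls and 5.50-fold and 3.74-fold in mutants. *Esrp1* exceeded *Esrp2* 31.4-fold and 18.5-fold in controls and 51.0-fold and 32.75-fold in mutants. In TPM the member that led each of these 3 pairs was the same in all 4 libraries. For the PTBP pair this rests on unlike estimated mean lengths, 863 to 998 bases for *Ptbp1* and 2160 to 2531 bases for *Ptbp2*. In CPM *Ptbp2* was above *Ptbp1* in control 1 (146 against 77.2) and mutant 2 (115 against 102). It was below *Ptbp1* in control 2 (102 against 134) and mutant 1 (88.1 against 107). *Mbnl1* exceeded *Mbnl2* 3.99-fold and 2.40-fold in controls and 2.95-fold in mutant 2, while in mutant 1 *Mbnl2* was 1.43-fold higher. The groups overlapped for 3 pairs and not for *Esrp1* over *Esrp2*, with exact permutation p-values (two-sided) between 0.333 and 1 (adjusted over the 4 pairs, 0.889 to 1). With 0.1 TPM added in place of 1, the groups overlapped for *Esrp1* over *Esrp2* (exact p = 0.667) and not for *Mbnl1* over *Mbnl2* (exact p = 0.333). The log2 balance of the latter, mutant minus control, then moved from -1.11 to -3.37, and with 1 TPM it ran from -0.07 without mutant 1 to -2.14 without mutant 2. With 2 libraries against 2 the smallest p an exact test can give is 0.333.

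RSEM also gives each gene a mean transcript length, weighted by the estimated share of each transcript, which moves when the mix of transcripts moves. *Celf2*, with 28 annotated transcripts of 331 to 8856 bases, had mean lengths of 4329 and 3742 bases in controls 1 and 2 and of 5301 and 5303 bases in mutants 1 and 2. The mutants were almost equal (SD 1.51 bases, n = 2) and both above the controls (SD 415 bases, n = 2). The difference was 1266 bases, and 4.22% of 6660 comparable genes had a larger relative difference (genes with lengths that vary and at least 50 expected counts in every library). *Mbnl1*, with 25 transcripts of 346 to 5655 bases, had 1626 and 2550 bases in controls and 2864 and 2661 bases in mutants. Its control values rest on 81 and 53 expected counts.

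*Ptbp1* had short means, 871 and 863 bases in controls and 998 and 984 bases in mutants, against a longest annotated transcript of 3169 bases. *Rbfox2* had 1165 and 1210 bases in controls and 1263 and 1244 bases in mutants, against 6907 bases. *Ptbp2* had 2237 and 2160 bases in controls and 2531 and 2288 bases in mutants. Of the 8 members with at least 50 expected counts in every library, 5 were longer in both mutants and none was shorter, where 24.8% and 17.2% of the 6660 genes were (42.0% in either direction). *Celf1* (4351 to 4850 bases) and *Qk* (1626 to 2018 bases) overlapped between the groups, and *Esrp1* stayed between 3734 and 3741 bases in all 4 libraries. *Mbnl2* (1764 to 4534 bases) and *Esrp2* (631 to 3536 bases) rest on few counts. The exact permutation p was 0.333 for each of the members without overlap (0.476 adjusted over the 10), the smallest that it can give. These lengths come from short reads assigned to annotated transcripts, so they do not name the exon or end that differs.

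**Figure D4:**
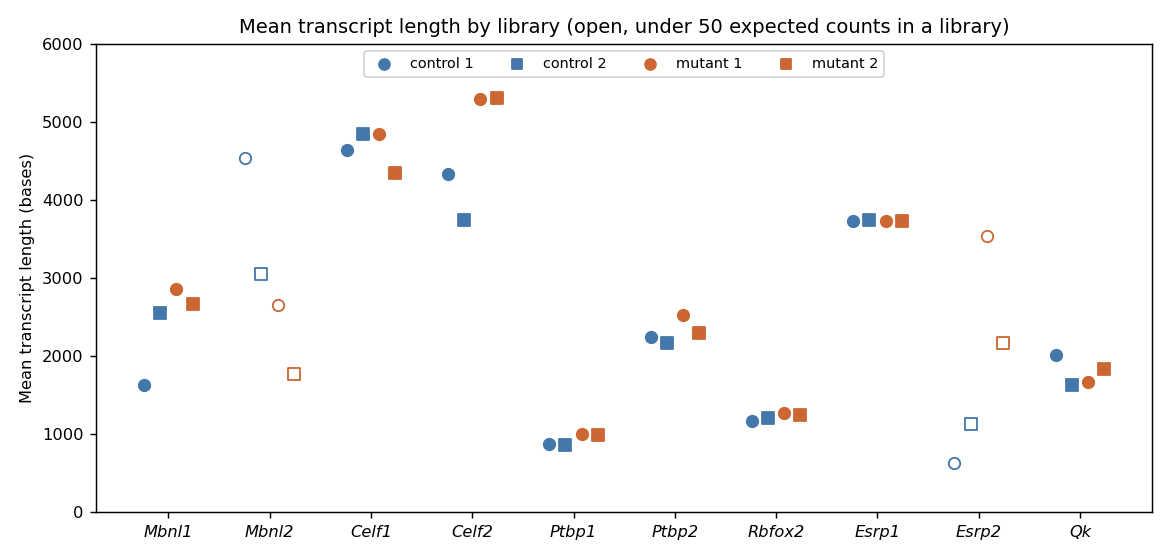
Mean transcript length in bases for each regulator in controls 1 and 2 and mutants 1 and 2 (colours and shapes as in the legend), with open symbols for genes under 50 expected counts in a library. Celf2 lies at 5301 and 5303 bases in the mutants and at 4329 and 3742 bases in the controls, and Esrp1 is level across libraries.

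Among 69 other splicing regulators 61 were tested, and 1 rose and none fell, where 3.75% of all tested genes passed, with a median log2 fold change of 0.12 against 0.05 over all tested genes. The mutants were above both controls for 24 of the 61 and below both for 7, where 28.8% and 25.7% of all tested genes were. The gene that rose was *Rbm5*, an RNA-binding splicing factor known from apoptosis genes, at 9.22 and 10.4 CPM in controls 1 and 2 and at 28.5 and 25.9 CPM in mutants 1 and 2. Its log2 fold change was 1.47 (SE 0.22, edgeR adjusted p = 0.0267), and the call was lost without control 1 (adjusted p = 0.277) or control 2 (0.257). Of the 8 further paralogs of the members 5 were tested and none passed. The most abundant of these per length was *Ptbp3*, at 52.0 and 76.1 TPM in controls and 85.8 and 94.7 TPM in mutants (log2 fold change in counts 0.40, edgeR adjusted p = 0.183), and next came *Celf3* at 0.35 to 2.80 TPM.

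Of 14 tissue-restricted regulators 9 were tested and none passed, with a median log2 fold change of -0.02. *Rbm38* (108.9 to 185.7 TPM) and *Elavl2* (158 to 188 TPM), a neuronal-type RNA-binding protein gene, were the most abundant. Of 20 hnRNP genes, which coat nascent RNA, none passed, 13 were positive and 7 negative, and the median was 0.08. *Hnrnpk* (830 to 1122 TPM) and *Hnrnpc* (574 to 669 TPM) led that list. Of 27 broad regulators *Rbm5* alone passed, 21 were positive and 6 negative, and the median was 0.36. Over all tested genes 53.3% were positive. At an unadjusted p under 0.05 there were 15 of the 61 tested regulators and 4 of the 10 members, where 23.0% of all tested genes lay under it.

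By distance of centred log2 CPM over the 4 libraries, the 3 of 70 other regulators most like *Mbnl1* were its paralog *Mbnl3* (distance 0.70), *Rbm5* (1.04) and *Syncrip* (1.27). *Mbnl3* was at 0.322 and 0.238 CPM in controls 1 and 2 and at 0.710 and 1.65 CPM in mutants 1 and 2 (log2 fold change 2.06, edgeR adjusted p = 0.184). *Syncrip* had control values of 2.46 and 0.794 CPM and mutant values of 8.98 and 4.06 CPM. These genes were chosen for their likeness to *Mbnl1*, so a shared order of the libraries is no result.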

How the data were processed

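RNA of mouse oocytes was measured in 2 control and 2 mutant libraries, grouped and numbered by their titles. The authors deposited a matrix of raw counts per gene and, per the file headers, a table per library with RSEM expected counts, TPM and FPKM (per the file headers, values per length by the authors) and transcript lengths in bases. The submitters' processing notes list cutadapt 1.16, STAR, RSEM and build mm10. The sources used here do not name the counter of the matrix or say whether it was stranded.

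The whole matrix was fitted in R 4.3.3 with edgeR 4.0.16 (filterByExpr and TMM, then glmQLFit and glmQLFTest with genotype alone, 2 residual degrees of freedom), with Benjamini-Hochberg adjustment over 15493 genes. CPM are on TMM-scaled sizes, and SE is the log2 fold change over the square root of F. Alternatives were DESeq2 1.42.0, limma 3.58.1, RLE or total scaling, a replicate block, other filters, leaving out each library, and RSEM expected counts rounded to whole numbers. Ratios used a pseudocount of 1 TPM. The fit was tested on simulated data (15066 genes). Named genes were the members, regulators that passed or, in lists with none, the 2 most abundant, *Ezh2*, and the 3 genes most like *Mbnl1*; marker and overlapping genes were added after their values were seen. Members and lists were chosen with earlier results of these data known. Amplified reads are not independent molecules.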

Additional observations from a re-analysis of the deposited data

How the results depend on the processing

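With 2 libraries a group the counts of genes past the threshold depended on the setting. All tested genes gave 581 calls, 1993 with DESeq2, 1322 with no filter, 1213 with the replicate block, and 22 to 1688 with a library left out. The members gave 1 call, 3 with DESeq2, 2 each with limma, no filter, a mean of at least 10 CPM or the replicate block, and 0 (without either control) to 2 with a library left out, the 1 call without mutant 2 being *Mbnl2*. The other regulators gave 1 call, 5 with DESeq2, 2 each with no filter or a mean of at least 10 CPM, 3 with the replicate block, and 0 to 2 with a library left out. The numbers share no stated animal or batch, and over 15493 genes the deviations of control 1 and mutant 1 correlated at 0.18. With the replicate block *Mbnl2* passed (log2 fold change 6.24, adjusted p = 0.000701), and *Mbnl1* (2.16) and *Rbm5* (1.47) still did. *Celf1* turned positive with library totals (0.048), and with a library left out ran from -0.34 to 0.21. *Ptbp1* turned positive with library totals (0.058), limma (0.034), a mean of at least 10 CPM (0.024), the replicate block (0.033) and RSEM counts (0.056), and ran from -0.37 to 0.39 with a library left out. *Qk* turned negative with RLE (-0.0077) and DESeq2 (-0.0076), and with a library left out ran from -0.23 to 0.21, and *Esrp2* from -0.66 to 1.44. The log2 balance of *Celf1* over *Celf2* ran from -0.26 to 0.11 with a library left out, and that of *Ptbp1* over *Ptbp2* from -0.30 to 0.92. The mean length difference with a library left out ran from -387 to 111.4 bases for *Celf1*, from -5.38 to 2.15 bases for *Esrp1* and from -271.7 to 120.5 bases for *Qk*. The cause was not tested.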
